A study of Mus musculus with 6 samples.

Results

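The small heat shock proteins examined here are the products of 7 mouse genes, *Hspb1*, *Hspb2*, *Hspb3*, *Hspb6*, *Hspb7*, *Hspb8* and *Cryab*, chosen as a family that is abundant in muscle and found in the deposited table by symbol among 55426 listed genes. All 7 were listed, 6 were above 0 TPM, and those 6 passed the expression minimum of a mean of 0.5 TPM that left 15775 genes for testing. *Hspb3* was listed at 0 in all 6 libraries. TPM divides by transcript length and gives every library one total, so that levels can be set side by side between genes. Between libraries, a TPM value also depends on the share of the other transcripts. The family was chosen by symbol but selected on measured values too, having been proposed with the knockout against control values of these same libraries in view. Therefore the members' levels, fold changes and p-values in that contrast are given as a description and support nothing further.

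Small heat shock proteins are ATP-independent chaperones that share an α-crystallin domain, assemble into oligomers and hold partly unfolded proteins until ATP-driven chaperones such as HSP70 can refold them. In muscle they protect actin filaments, desmin and the Z-line, and several are substrates of kinases that control contraction. In smooth muscle HSPB6 (HSP20) is phosphorylated by cyclic nucleotide-dependent kinases during relaxation, and HSPB1 is phosphorylated downstream of p38 MAP kinase.

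RNA came from abdominal aortas of male mice backcrossed to the C57BL/6J background, 3 control mice and 3 mice with VSMC-specific deletion of *Prdm16* (Prdm16SMKO, *Prdm16* fl/fl with *Myh11*-CreERT2), as 1 polyadenylated library per sample (n = 3 mice per group by the study's methods). The controls, called wild-type by the study, carried *Myh11*-CreERT2, and no floxed *Prdm16* allele is stated for them. This Cre is on the Y chromosome and is driven by a smooth muscle promoter, so the deletion is directed to VSMCs and not to the other cells of the aorta. Mice aged 8 to 10 weeks were gavaged for 5 days with tamoxifen, 75 mg/kg each day, and were sampled 2 weeks later. Libraries were read as 151-bp pairs at a stated average of 40 M pairs. The depth of any one library is unknown, so the counting error of the values cannot be given here. *Prdm16* measured 33.4, 36.8 and 30.8 TPM in controls 1, 2 and 3, against 20.8, 27.7 and 14.8 TPM in Prdm16SMKO replicates 1, 2 and 3, with every Prdm16SMKO library below every control (log2 fold change −0.70, SE 0.23, limma, Benjamini-Hochberg adjusted p = 0.376). Mitochondrial transcripts took 15.8% to 27.4% and 45S ribosomal RNA transcripts 15.6% to 31.4% of the TPM of a library, with overlapping ranges in the groups. The 16 smooth muscle contractile genes summed to 29813 to 46227 TPM in control and 24971 to 35874 TPM in Prdm16SMKO libraries, and were thus abundant and overlapping between the groups.

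In control aorta *Hspb1* was by far the most abundant of the family, at 1053 ± 112 TPM (SD, n = 3), which placed it at rank 62 of the tested genes by mean control level. It was followed by *Hspb7* at 209 ± 55.3 TPM, *Cryab* at 187 ± 54.7 TPM, *Hspb6* at 140 ± 37.9 TPM, *Hspb8* at 101 ± 15.1 TPM and *Hspb2* at 67.7 ± 9.75 TPM (SD, n = 3 each). The library ranges of *Hspb7* and *Cryab*, of *Cryab* and *Hspb6*, and of *Hspb6* and *Hspb8* overlapped, although each was above the next in all 3 control libraries. The ranges of *Hspb1* and *Hspb7*, and of *Hspb8* and *Hspb2*, did not overlap. In Prdm16SMKO aorta the order was *Hspb1* (632 ± 141 TPM), *Cryab* (202 ± 50.8 TPM), *Hspb8* (86.8 ± 19.4 TPM), *Hspb7* (84.1 ± 12.7 TPM), *Hspb2* (80.9 ± 18.2 TPM) and *Hspb6* (51.6 ± 7.39 TPM; SD, n = 3 each), so that *Hspb7* was the second in control and the fourth here, and *Hspb6* the fourth in control and the last here. This is the order of the means. The ranges of *Hspb8* and *Hspb7*, and of *Hspb7* and *Hspb2*, overlapped. *Hspb8* was above *Hspb7* in only 1 of the 3 Prdm16SMKO libraries, and *Hspb7* above *Hspb2* in 2. Of 4 other genes of the family or named with it, 1 passed the expression minimum. *Cryaa*, the lens α-crystallin, and *Odf1*, a sperm tail protein, were listed at 0 in every library, *Hspb9* was listed at 0.43 TPM in 1 library of each group and at 0 in the others, and *Hspb11*, which is named with the family but encodes a ciliary transport protein, was at 14.8 ± 1.57 TPM in control and 15.7 ± 3.09 TPM in Prdm16SMKO (SD, n = 3 each).

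**Figure D1:**
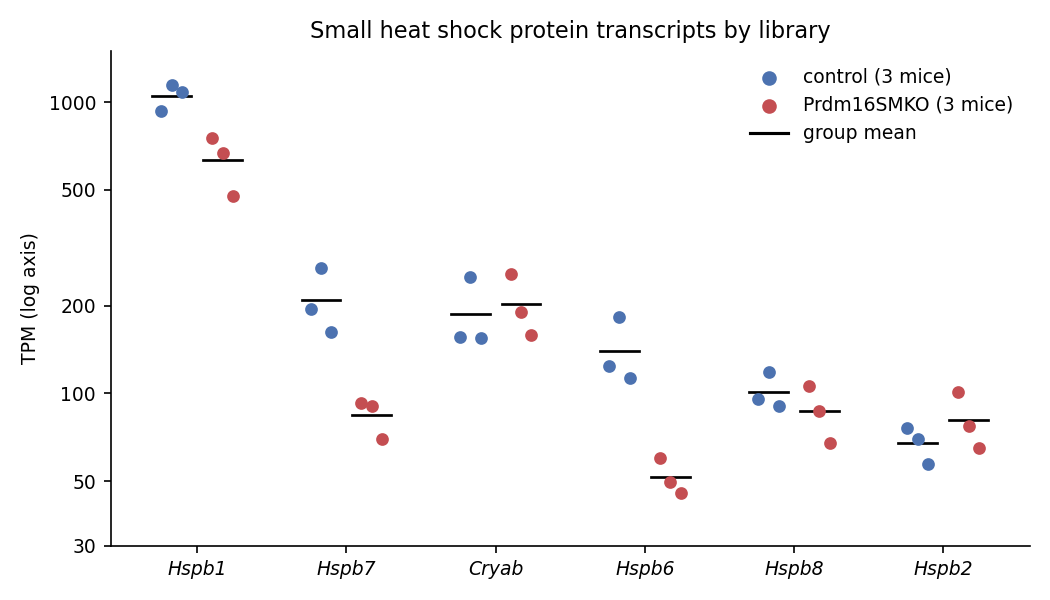
TPM of the 6 detected small heat shock protein genes in each library on a log axis, ordered by control level, with control libraries in blue, Prdm16SMKO libraries in red and the group means as lines. For *Hspb1*, *Hspb7* and *Hspb6* the 3 red points lie below the 3 blue points, while for *Cryab*, *Hspb8* and *Hspb2* the groups overlap.

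The 6 detected members divided into 3 with separate groups and 3 with overlapping groups. *Hspb6*, *Hspb7* and *Hspb1* were lower in every Prdm16SMKO library than in any control, and *Hspb8*, *Cryab* and *Hspb2* were not. Of the 15775 tested genes 5.76% were separated in this direction, and 0.171% were called lower at an adjusted p under 0.05, the rule by which 1 of the 6 members, *Hspb6*, was called. In the other direction, 7.02% of all tested genes were separated and 0.184% called, and no member was either. An unadjusted p under 0.05 was found for 3 members, all lower, where 3.85% of all tested genes had one in that direction and 8.74% in either. Because these values were in view when the family was chosen, nothing is read from the counts. The median log2 fold change of the 6 was −0.50, against 0.02 over all tested genes. In a whole aorta, fewer cells of a type and less RNA per cell cannot be told apart.

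*Hspb6* (ENSMUSG00000036854; chromosome 7 of GRCm38, 30552178 to 30555443), which encodes the relaxation-linked HSP20, measured 124, 184 and 113 TPM in controls 1, 2 and 3, against 59.8, 49.6 and 45.4 TPM in Prdm16SMKO replicates 1, 2 and 3. All 3 Prdm16SMKO values were below the lowest control, that of replicate 3. The mean was 63.2% lower in Prdm16SMKO, or −1.41 on the log2 scale (SE 0.21, 95% interval −1.89 to −0.94, limma, Benjamini-Hochberg adjusted p over all genes = 0.0386). Fits that each lacked 1 library gave values from −1.55 to −1.20, but the adjusted p was under 0.05 only without Prdm16SMKO replicate 1 (0.0372) and otherwise ran from 0.0889, without control replicate 3, to 0.128, without Prdm16SMKO replicate 2, with 0.107 and 0.114 without control replicates 1 and 2 and 0.0985 without Prdm16SMKO replicate 3.

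*Hspb7* (ENSMUSG00000006221; chromosome 4, 141420779 to 141425311), which encodes a cardiovascular small heat shock protein that associates with actin and filamin, was at 195, 270 and 162 TPM in control and at 92.3, 90.5 and 69.5 TPM in Prdm16SMKO replicates 1, 2 and 3. All 3 Prdm16SMKO values were below the lowest control, again that of replicate 3. The mean was 59.8% lower, a log2 fold change of −1.29 (SE 0.21, 95% interval −1.77 to −0.80, limma, Benjamini-Hochberg adjusted p = 0.0558), just outside the threshold at which *Hspb6* was called. Left-out libraries moved this value from −1.46 to −1.09, with adjusted p from 0.0661 to 0.179. The call was made under 8 of the 18 alternative settings and that of *Hspb6* under 10, and no alternative turned either direction.

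*Hspb1* (ENSMUSG00000004951; chromosome 5, 135887919 to 135889563), the family member that binds actin filaments and is phosphorylated in the p38 pathway, was at 930, 1147 and 1082 TPM in control and at 751, 669 and 476 TPM in Prdm16SMKO replicates 1, 2 and 3. Its groups were also separate, all 3 Prdm16SMKO values being below the lowest control, that of replicate 1. The mean was 40.0% lower, a log2 fold change of −0.76 (SE 0.20, 95% interval −1.22 to −0.30, limma, Benjamini-Hochberg adjusted p = 0.256). Among all tested genes, 2.84% had a log2 fold change at least as low. It was not called under any alternative, with adjusted p between 0.0867 and 0.546.

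*Hspb8* (ENSMUSG00000041548; chromosome 5, 116408491 to 116422864), which works with BAG3 in the autophagic removal of damaged filamin, was at 95.4, 119 and 90.2 TPM in control and at 106, 86.8 and 67.5 TPM in Prdm16SMKO replicates 1, 2 and 3. The log2 fold change was −0.24 (SE 0.20, 95% interval −0.69 to 0.22, limma, Benjamini-Hochberg adjusted p = 0.869), and it was −0.07 without Prdm16SMKO replicate 3, −0.12 without control replicate 2 and −0.39 without Prdm16SMKO replicate 1. *Cryab* (ENSMUSG00000032060; chromosome 9, 50751325 to 50756636), which encodes αB-crystallin, a chaperone of desmin, was at 156, 250 and 155 TPM in control and at 258, 190 and 158 TPM in Prdm16SMKO. Its log2 fold change was 0.12 (SE 0.24, 95% interval −0.44 to 0.67, limma, Benjamini-Hochberg adjusted p = 0.967). Without Prdm16SMKO replicate 1, the library with its highest value, the log2 fold change of *Cryab* was −0.07, and it was 0.35 without control replicate 2, 0.28 without Prdm16SMKO replicate 3 and under 0.01 without control replicate 1 or 3. *Hspb2* (ENSMUSG00000038086; chromosome 9, 50751078 to 50752354), a partner of the myotonic dystrophy kinase, was at 76.3, 69.6 and 57.1 TPM in control and at 101, 77.0 and 65.0 TPM in Prdm16SMKO, with a log2 fold change of 0.24 (SE 0.20, 95% interval −0.21 to 0.69, limma, Benjamini-Hochberg adjusted p = 0.857). That value was 0.07 without Prdm16SMKO replicate 1, 0.13 without control replicate 3 and 0.39 without Prdm16SMKO replicate 3. The groups overlapped in these 3 genes, and their intervals include 0 but reach a log2 fold change of about −0.69 for *Hspb8* and 0.69 for *Hspb2*, so a change of that size was not excluded. *Hspb2* and *Cryab* lie head to head on opposite strands and overlap by 1030 bases in GENCODE M21, and no source used here says that the counting kept strand, so reads from the overlap could be placed on either gene.

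**Figure D2:**
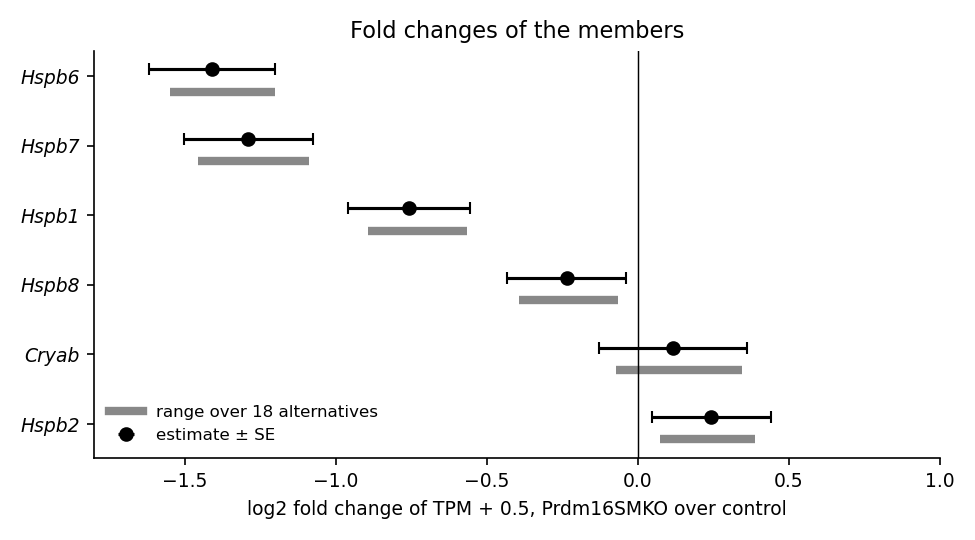
Log2 fold change of each detected member, Prdm16SMKO over control, on the log2(TPM + 0.5) scale, with the standard error as whiskers and, as grey bars, the range over 18 alternative settings of the analysis. The estimates run from −1.41 for *Hspb6* to 0.24 for *Hspb2*, and among the grey bars that of *Cryab* alone crosses 0.

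A TPM value depends on the share of the other transcripts in its library, but a ratio of 2 members in 1 library does not. The *Hspb6* to *Cryab* ratio was 0.797, 0.733 and 0.727 in control replicates 1, 2 and 3 and 0.232, 0.261 and 0.287 in Prdm16SMKO replicates 1, 2 and 3. These ratios spread less within a group than the TPM of either gene, which ranged from 113 to 184 for *Hspb6* and from 155 to 250 for *Cryab* in control. The *Hspb7* to *Cryab* ratio was 1.13 ± 0.111 in control and 0.425 ± 0.0601 in Prdm16SMKO, and the *Hspb1* to *Cryab* ratio was 5.84 ± 1.20 and 3.15 ± 0.322 (SD, n = 3 each). With *Hspb8* in place of *Cryab*, the ratios of *Hspb6* (1.37 ± 0.159 and 0.602 ± 0.0611), *Hspb7* (2.04 ± 0.240 and 0.981 ± 0.0973) and *Hspb1* (10.5 ± 1.32 and 7.27 ± 0.373; SD, n = 3 each) were again lower in every Prdm16SMKO library than in any control. The *Hspb7* to *Hspb6* ratio overlapped between the groups, at 1.57, 1.47 and 1.44 in control and 1.54, 1.82 and 1.53 in Prdm16SMKO, and so did *Hspb2* to *Cryab*, at 0.378 ± 0.106 and 0.402 ± 0.0103 (SD, n = 3 each). Between members whose TPM overlapped, *Cryab* to *Hspb8* was at 1.82 ± 0.254 and 2.32 ± 0.117 and *Hspb2* to *Hspb8* at 0.673 ± 0.112 and 0.933 ± 0.0401 (SD, n = 3 each). Both were higher in every Prdm16SMKO library than in any control, for *Cryab* to *Hspb8* narrowly (2.11 in control replicate 2 and 2.19 in Prdm16SMKO replicate 2). The share of all gene pairs with separate ratios was not computed, so nothing further is read from these ratios. The *Hspb1* to *Hspb6* ratio was higher in every Prdm16SMKO library, at 7.77 ± 1.69 in control and 12.2 ± 1.53 in Prdm16SMKO (SD, n = 3 each).

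**Figure D3:**
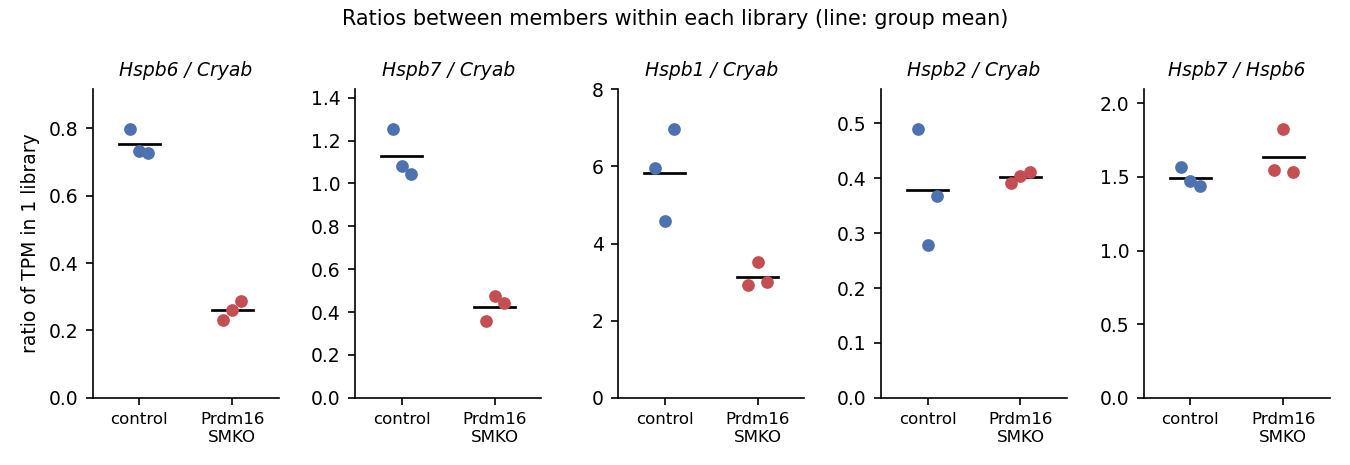
Ratio of the TPM of a pair of members within each library, with 3 control libraries in blue, 3 Prdm16SMKO libraries in red, the group mean as a line and every axis starting at 0. The ratios of *Hspb6*, *Hspb7* and *Hspb1* to *Cryab* are separate between the groups, and those of *Hspb2* to *Cryab* and of *Hspb7* to *Hspb6* overlap.

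The members together summed to 1759 ± 247 TPM in control and 1137 ± 244 TPM in Prdm16SMKO (SD, n = 3 each), with all Prdm16SMKO sums below all control sums. *Hspb1* made up 60.1% ± 4.59 of the sum in control and 55.5% ± 1.82 in Prdm16SMKO, with overlapping values. The share of *Hspb6* was 7.89% ± 1.10 and 4.60% ± 0.482, that of *Hspb7* 11.8% ± 1.81 and 7.47% ± 0.630, and that of *Cryab* 10.5% ± 1.55 and 17.7% ± 1.25 in control and Prdm16SMKO (SD, n = 3 each). The sum by which these shares are divided was lower in Prdm16SMKO, which raises a share. The TPM of *Cryab* itself overlapped between the groups. Set against smooth muscle transcripts, *Hspb6* was at 3.72, 3.97 and 3.79 per 1000 TPM of the contractile list in control and at 1.67, 1.69 and 1.82 in Prdm16SMKO replicates 1, 2 and 3, so its groups were separate on that scale too. *Hspb7* was at 5.71 ± 0.233 and 2.81 ± 0.257, *Hspb1* at 29.7 ± 5.95 and 20.9 ± 1.87 and *Hspb8* at 2.82 ± 0.233 and 2.87 ± 0.150 per 1000 TPM of the contractile list in control and Prdm16SMKO (SD, n = 3 each). The first 2 were separate between the groups and *Hspb8* was not. On the same scale *Cryab*, at 5.10 ± 0.385 and 6.67 ± 0.453, and *Hspb2*, at 1.90 ± 0.389 and 2.68 ± 0.112 (SD, n = 3 each), were higher in every Prdm16SMKO library than in any control, a separation that was not present in their TPM. The contractile sum by which they are divided had a lower mean in Prdm16SMKO (30061 TPM) than in control (36476 TPM), which raises values on this scale. The share of all genes separated on this scale was not computed.

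Over the 6 libraries, *Hspb6* and *Hspb7* followed each other with a Pearson r of 0.99 on the log2(TPM + 0.5) scale, and the deviations of their values from the group means with an r of 0.93. The deviations of *Hspb6* and *Cryab* had an r of 0.96, while over the libraries as they are their r was 0.13. These points share the libraries and their scaling, and all 15 pairs of members had positive correlations of deviations, from 0.57 for *Hspb1* and *Hspb2* to 0.96. Among 9668 genes averaging 5 TPM or more, those most like *Hspb6* over the 6 libraries were *Wnt16* (r = 0.997), *Slc35a4* (r = 0.997) and *Dkk3* (r = 0.996). *Wnt16*, a secreted WNT ligand, had means of 61.8 and 27.2 TPM in control and Prdm16SMKO, and *Dkk3*, a secreted WNT modulator, 142 and 69.8 TPM. Those most like *Hspb7* were *Il11ra1*, *Myh10* and *Anln*, those most like *Hspb1* were *Sardh*, *Gm11627* and *Gabarap*, those most like *Hspb8* were *Cgref1*, *1110065P20Rik* and *Camk2b*, those most like *Cryab* were *Serinc1*, *Rrp7a* and *Otub1*, and those most like *Hspb2* were *Gpr137b-ps*, *2200002D01Rik* and *Fbxl19*, with r of 0.99 or more after rounding. With 6 libraries and this many genes, some very high values arise for any gene, and the values are given as a description.

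*Hspb7* lies on chromosome 4, the chromosome of *Prdm16*, with 12.9 Mb between the genes. Within 500 kb of *Hspb7*, 24 other genes were tested, of which 20 had lower and 4 higher estimates in Prdm16SMKO and 10 were lower in every Prdm16SMKO library than in any control, where 5.76% of all tested genes were. The median log2 fold change of the 24 was −0.34. *Slc25a34*, a mitochondrial carrier that starts 193.5 kb past the end of *Hspb7*, had means of 19.5 and 1.72 TPM, *Tmem82* 9.60 and 1.06 TPM, and *Fblim1*, which encodes the filamin-binding protein migfilin, 805 and 264 TPM in control and Prdm16SMKO (limma, Benjamini-Hochberg adjusted p = 7.9e-04, 0.0164 and 0.0164). *Arhgef19*, a RhoA exchange factor on the other side, had means of 8.63 and 1.54 TPM (limma, Benjamini-Hochberg adjusted p = 0.0727). Called genes made up 3 of these 24 and 0.355% of all tested genes, and the named genes here were chosen after their values were seen. Within 500 kb of *Hspb6* 1 of 44 tested genes was lower in every Prdm16SMKO library than in any control, within 500 kb of *Hspb8* 1 of 6, within 500 kb of *Hspb3* 1 of 5, and within 500 kb of *Hspb1*, *Cryab* or *Hspb2* 0 of 22, 16 and 16. In the other direction, 1 gene near *Hspb6*, 2 near *Hspb1* and the same 1 near *Cryab* and *Hspb2* were higher in every Prdm16SMKO library (7.02% of all tested genes). The gene near *Hspb6*, *E130208F15Rik*, had means of 0.05 and 2.19 TPM in control and Prdm16SMKO. It was the only one called in these other windows (limma, Benjamini-Hochberg adjusted p = 0.0416). The floxed *Prdm16* allele of the Prdm16SMKO mice is on this chromosome too, and none is stated for the controls. The part of this allele, or of the position of *Hspb7*, in its lower level was not tested.

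**Figure D4:**
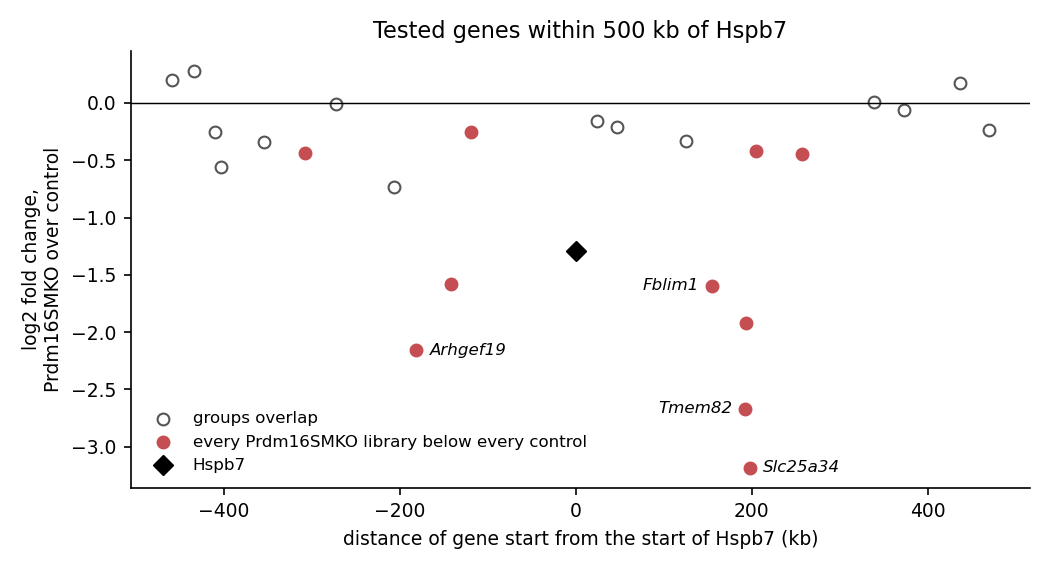
Log2 fold change, Prdm16SMKO over control, of the 24 tested genes within 500 kb of *Hspb7*, by the distance of their start from that of *Hspb7* in kb, with *Hspb7* as a black diamond. Filled red points mark the 10 genes whose Prdm16SMKO libraries were all below the controls, and 20 of the 24 points lie below 0.

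The sequences upstream of the start sites are shown for 3 members that were lower and for *Hspb8*, which was not separate between the groups, so that they can be read side by side. They are from RefSeq on GRCm38.p6, which held an entry for 5 of the 7 members, and are written 5′ to 3′ on the strand of the gene, at chr5:135887669-135887918 (plus strand) for *Hspb1*, chr7:30553063-30553267 (plus) for *Hspb6*, chr4:141420529-141420778 (plus) for *Hspb7* and chr5:116422865-116423114 (minus) for *Hspb8*. Each covers the 250 bases before the start, except that of *Hspb6*, which belongs to the downstream of its 2 RefSeq starts and was shortened to the 205 bases outside GENCODE M21 exons. Capitals mark GAANNTTC, a pair of inverted units of the heat shock element that binds HSF1.
Hspb1: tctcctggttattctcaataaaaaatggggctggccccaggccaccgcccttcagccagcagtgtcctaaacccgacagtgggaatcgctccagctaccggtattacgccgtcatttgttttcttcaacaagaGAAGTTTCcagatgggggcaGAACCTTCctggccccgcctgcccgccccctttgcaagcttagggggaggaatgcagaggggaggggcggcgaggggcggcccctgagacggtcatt
Hspb6: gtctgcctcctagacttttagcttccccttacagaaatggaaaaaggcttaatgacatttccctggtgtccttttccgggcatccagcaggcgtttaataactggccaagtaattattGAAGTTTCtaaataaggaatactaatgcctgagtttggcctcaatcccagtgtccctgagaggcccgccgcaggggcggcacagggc
Hspb7: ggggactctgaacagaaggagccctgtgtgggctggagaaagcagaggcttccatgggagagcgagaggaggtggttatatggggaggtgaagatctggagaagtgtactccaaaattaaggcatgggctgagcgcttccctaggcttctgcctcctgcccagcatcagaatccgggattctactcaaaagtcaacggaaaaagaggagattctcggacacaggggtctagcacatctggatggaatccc
Hspb8: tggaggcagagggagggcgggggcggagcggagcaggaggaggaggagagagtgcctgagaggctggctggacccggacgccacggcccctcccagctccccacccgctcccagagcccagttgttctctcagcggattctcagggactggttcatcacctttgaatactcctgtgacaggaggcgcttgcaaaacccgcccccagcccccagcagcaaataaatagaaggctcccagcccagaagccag
GAANNTTC was present at 117 to 110 and at 97 to 90 bases upstream of the start of *Hspb1*, and at 120 to 113 bases upstream of that of *Hspb6*. It was not in these windows of *Hspb7* and *Hspb8*, nor in the window of the other *Hspb6* start. The fifth member with an entry, *Hspb3*, which was at 0 TPM in every library, also held GAANNTTC, at 224 to 217 bases upstream, with TATAAA at 11 to 6 and a MEF2 site at 12 to 3 that overlaps it. *Cryab* and *Hspb2*, which were expressed and not separate between the groups, had no entry and were not searched. Of 32851 windows of 250 bases before RefSeq starts, 6.69% held GAANNTTC, which is its own reverse complement and so reads alike on both strands. The other arrangement, TTCNNGAA, was in 7.17% of all windows and in none of these 4. TATAAA, searched on both strands, was in 12.4% of all windows and at 29 to 24 bases upstream of the start of *Hspb6*, past the end of the printed stretch. The CArG box of serum response factor (1.47% of all windows) and the MEF2 site (2.92%) were in none of the 4 members printed. These matches describe letters in a window and not the binding of a factor.

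Chaperones and partners of the family were read from the same fit. Of 21 genes of HSF1 and the heat-inducible chaperones, all were tested, 17 had lower and 4 higher estimates in Prdm16SMKO, with a median log2 fold change of −0.20. None was called at an adjusted p under 0.05 (limma, where 0.355% of all genes were called), 5 had an unadjusted p under 0.05, all lower (3.85% of all tested genes), and 7 were lower in every Prdm16SMKO library than in any control (5.76% of all). The count of called genes depended on the setting, with 3 called under a minimum of 2 TPM, robust moderation or array weights and 1 under 6 of the other settings. The inducible HSP70 gene *Hspa1a* was at 546, 494 and 446 TPM in control and at 209, 220 and 105 TPM in Prdm16SMKO, with a log2 fold change of −1.54 (SE 0.27, limma, Benjamini-Hochberg adjusted p = 0.0648). Its near-identical copy *Hspa1b*, with which it can share reads, had −1.45 (0.0982), and *Dnajb1*, an HSP40 partner of HSP70, had −1.26 (0.0553). Both had separate groups. *Hsf1* itself was at means of 22.2 and 20.7 TPM in control and Prdm16SMKO, a log2 fold change of −0.08 (limma, Benjamini-Hochberg adjusted p = 0.970). GAANNTTC was in the windows of *Hspb1* and *Hspb6* and not in those of *Hspb7* and *Hspb8*, and its part in these levels was not tested.

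Genes of chaperone-assisted selective autophagy, the pathway in which HSPB8 and BAG3 hand damaged filamin to lysosomes, were taken with BAG co-chaperones as a list of 15. Of these, 6 had higher and 9 lower estimates and none was called. An unadjusted p under 0.05 was found for 1, *Hspa8*, which was lower (limma, 3.85% of all tested genes in that direction). *Hspa8*, the constitutive HSP70, had means of 822 ± 133 and 566 ± 71.9 TPM in control and Prdm16SMKO (SD, n = 3 each), or −0.53 on the log2 scale (limma, Benjamini-Hochberg adjusted p = 0.420). *Bag3* had −0.22 and *Hspb8*, as above, −0.24. Of 27 tested kinases, phosphatases and adaptors that act on small heat shock proteins, none was called (0 also at an unadjusted p under 0.05, limma), with a median of −0.03. The largest differences were those of *Prkar2b* (1.19, SE 0.72), *Prkar1b* (0.99, SE 0.56) and *Ywhag* (0.45, SE 0.26), none of them with separate groups. That of *Prkar2b* rested on Prdm16SMKO replicate 3 (86.2 TPM, against 13.8 and 12.0 TPM in replicates 1 and 2) and that of *Prkar1b* on replicate 1 (25.5 TPM, against 4.53 and 5.65 TPM in replicates 2 and 3).

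Genes of the structures that small heat shock proteins protect had estimates in both directions. Of 27 tested genes of intermediate filaments, actin cross-linkers and the Z-line, 7 had higher and 20 lower estimates, with a median of −0.15, and none was called. In each direction 2 had an unadjusted p under 0.05 (limma, 3.85% of all tested genes lower and 8.74% in either direction). *Pdlim3*, a Z-line adaptor, had means of 325 ± 74.5 and 541 ± 124 TPM in control and Prdm16SMKO, with separate groups (SD, n = 3 each; log2 fold change 0.73, limma, Benjamini-Hochberg adjusted p = 0.353). *Csrp1*, a LIM protein of smooth muscle, had −0.61 (0.424) and *Sgca*, a sarcoglycan, 0.57 (0.631). Of the 16 smooth muscle contractile genes, 13 had lower and 3 higher estimates, with a median of −0.26, and none was called. An unadjusted p under 0.05 was found for 3 lower and 1 higher (limma, 3.85% of all tested genes lower and 8.74% in either direction). The list included *Actg2*, γ-enteric actin, at 0.87 (limma, Benjamini-Hochberg adjusted p = 0.235), *Itga8* at −0.59 (0.436) and *Smtn* at −0.53 (0.540). Transcription factors of muscle had a median of −0.07 over 12 tested genes, with none called and 0 at an unadjusted p under 0.05 (limma), and *Srf* at −0.36, *Mef2a* at −0.32 and *Tead1* at −0.24.

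**Figure D5:**
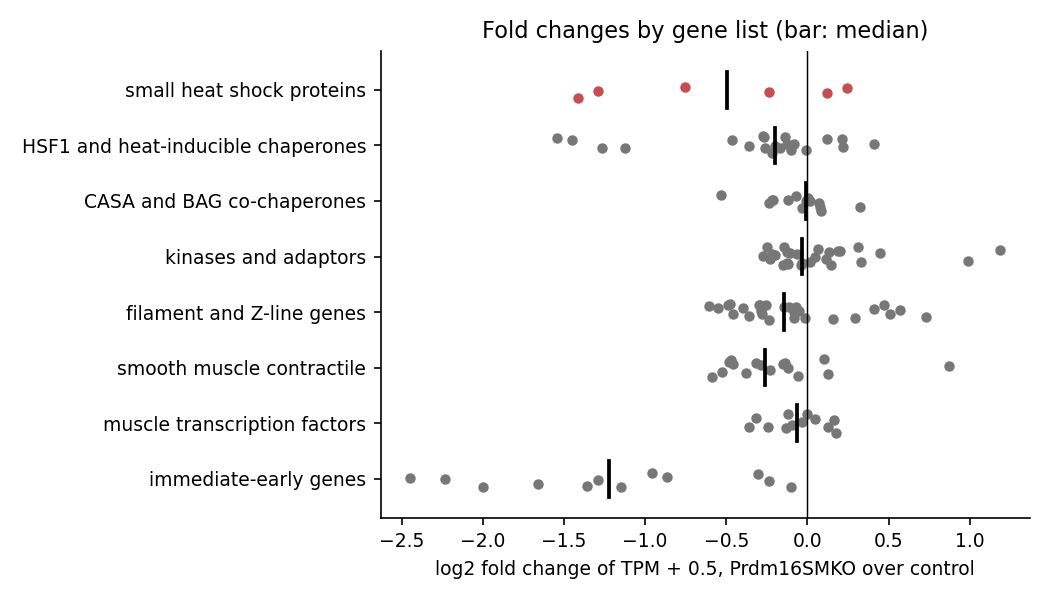
Log2 fold change, Prdm16SMKO over control, of every tested gene of 8 lists on the log2(TPM + 0.5) scale, 1 point per gene, with the list median as a bar and the small heat shock proteins in red. The medians run from −1.22 for immediate-early genes to −0.01 for the autophagy and BAG list.

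Immediate-early genes, which are transcribed soon after a cell is stimulated, summed to 652 to 908 TPM in control and 241 to 404 TPM in Prdm16SMKO. All 12 had lower estimates and 5, *Nr4a1*, *Arc*, *Atf3*, *Egr3* and *Fosb*, were called lower (limma, Benjamini-Hochberg adjusted p of 0.00762, 0.0164, 0.0239, 0.0392 and 0.0413), where 0.171% of all tested genes were, and *Fos*, which was not, had −2.23. Skeletal muscle markers summed to 16.3 to 27.2 TPM in control and 16.6 to 130 TPM in Prdm16SMKO, with none of 11 tested genes called (0 at an unadjusted p under 0.05, limma) and with *Tnnc2* at 1.22, *Tnnt3* at 0.49 and *Tnnt1* at −0.03. Cardiomyocyte markers summed to 26.9 to 41.5 TPM in control and 334 to 371 TPM in Prdm16SMKO, nearly all of it *Tnnt2* (304 to 346 TPM), the 1 called gene of the list (limma, Benjamini-Hochberg adjusted p = 0.000148), while *Myl7* and *Nppb* were listed at 0 in every library. *Actc1* had 1.37 and *Ryr2* −0.21. Adipocyte markers summed to 909 to 2037 and 1262 to 5112 TPM, endothelial markers to 272 to 340.0 and 302 to 502 TPM, fibroblast markers to 2108 to 2241 and 1576 to 2734 TPM, macrophage markers to 82.3 to 130 and 131 to 241 TPM and Schwann cell and neuron markers to 145 to 376 and 162 to 752 TPM in control and Prdm16SMKO, with no called gene among 42 tested and with 9 higher and 2 lower at an unadjusted p under 0.05 (limma, 8.74% of all tested genes in either direction). Macrophage markers made up 7 of those 9. All 10 macrophage markers had higher estimates, with a median of 0.76 and with sums that did not overlap, and 5 were higher in every Prdm16SMKO library than in any control (7.02% of all tested genes). Among the genes with the largest log2 fold changes were *Adipoq* (1.02) and *Plin1* (1.13) of adipocytes and *C1qa* (0.80) of macrophages. Of the adipocyte markers, 7 had higher and 1 a lower estimate. Endothelial markers went both ways, 6 higher and 2 lower, with *Vwf* at 0.90 and *Cldn5* at −0.54, each with separate groups. Fibroblast markers did too, 5 higher and 3 lower, with *Col1a1* at −0.54 and *Dpt* at 0.51. None of these genes was called. The adipocyte values rested on Prdm16SMKO replicate 3, where *Adipoq* was at 182 TPM and *Plin1* at 145 TPM, against 38.5 and 44.96 TPM and 31.7 and 39.1 TPM in replicates 1 and 2. Among the 3 Prdm16SMKO libraries, the same library had the lowest TPM of each of the 6 detected members. The part of these cells and of immediate-early genes in the lower *Hspb6*, *Hspb7* and *Hspb1* was not tested.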

How the data were processed

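The authors deposited 1 table of TPM values for 6 libraries. Their processing notes name cutadapt 2.3, FastQC 0.11.8, STAR 2.7.8a, RSEM 1.3.3, MultiQC 1.7 and GRCm38. No read counts were used, so the depth of each library is unknown. Here log2(TPM + 0.5) of the 15775 genes averaging 0.5 TPM or more was fitted with limma 3.58.1 (R 4.3.3, moderated with an intensity trend), Prdm16SMKO against control, with Benjamini-Hochberg adjustment over all of them and a call at an adjusted p under 0.05. The fit was also run on simulated data with independent noise for each gene and no differences between whole libraries. That run was a check of the code and supports no call made here. Fold changes on this scale understate those of low genes. With 3 against 3, an exact permutation test of a single gene cannot go below p = 0.1. Members and gene lists were chosen with earlier results of these data known. Named genes are the members, the called genes and the 3 largest differences at 5 TPM or more on average in each list, *Prdm16*, and the 3 genes most correlated with each member. *Hsf1*, *Bag3* and the genes near *Hspb7* and *Hspb6* were added after their values were seen. Positions are from GENCODE M21 on GRCm38.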

Additional observations from a re-analysis of the deposited data

How the results depend on the processing

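Under 17 other settings and 1 more chosen after seeing the data (GC content and transcript length trends removed), *Hspb6*, *Hspb7*, *Hspb1*, *Hspb2* and *Hspb8* kept the direction of their log2 fold changes. With 1 library left out, *Cryab* ran from −0.0723, without Prdm16SMKO replicate 1, to 0.3455, and *Hspb11* from −0.0533, without Prdm16SMKO replicate 2, to 0.2268, with −0.0013 without control replicate 3. *Hspb6* was at −1.41 without an expression minimum (limma, adjusted p = 0.138) and without the trend (0.103), past the threshold in neither. *Hspb7* passed it with a pseudocount of 0.1 (−1.29, limma, adjusted p = 0.0472), a minimum of 2 TPM (−1.29, 0.0315), median-of-ratios size factors (−1.30, 0.0116), quantile normalization (−1.24, 0.0142), mitochondrial and 45S genes left out (−1.28, 0.0174), robust moderation (−1.29, 0.0239), array weights (−1.21, 0.00650) and the GC and length correction (−1.27, 0.00927). In these 8 settings 2 members were called, and 0 without the minimum or the trend. Leaving out 1 library gave 0 to 1 called members, −1.55 to −1.20 for *Hspb6* and −1.46 to −1.09 for *Hspb7*.

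Over all genes, 56 were called, 27 of them lower. The counts were 10 (6 lower) without a minimum, 153 (92) with median-of-ratios factors, 129 (83) with quantile normalization, 123 (68) without mitochondrial and 45S genes, 33 (16) without the trend, 112 (62) with robust moderation, 494 (217) with array weights and 149 (89) with the GC and length correction, and 46 lower with a minimum of 2 TPM. With 1 library left out they ran from 5 to 61, and from 2 to 29 lower. The causes were not tested.

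Samples of the same replicate number did not deviate together (r = −0.13, −0.11 and 0.02 for numbers 1, 2 and 3, and 0.24 for control 2 with Prdm16SMKO 1). The labels state no pairing, and these few values cannot exclude one. With a replicate block 4 genes were called, 2 of them lower, with 0 members, and *Hspb6* stayed at −1.41 (limma, adjusted p = 0.164).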
